A study of Mus musculus with 9 samples.

Results

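A set of 9 genes of retinoid metabolism were followed in cultured mouse fat cells given PTH or PTHrP. The genes were Rdh10, Dhrs3, Aldh1a1, Aldh1a2, Aldh1a3, Crabp1, Crabp2, Stra6 and Cyp26b1, taken with all probe sets that the platform's probe table maps to them. These came to 12 probe sets of the 34945 with a single gene symbol, and to 9 of 18193 genes. Rdh10 was chosen by its difference between treated and control signals on these arrays, and the others were placed beside it, with their values known, because they share its pathway. The differences from control are therefore given as a description, without p-values. Where one of these genes is said to pass a threshold against control, or not to, that is also a description and not a test.

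In all, 3 groups of 3 Affymetrix arrays were compared. Cells treated with PTH(1-34), the amino-terminal fragment of parathyroid hormone, or with PTHrP(1-34), that of parathyroid hormone-related protein, were exposed at 100 ng/ml for 4 h on day 8 of differentiation. Control cells came from the same kind of culture, and no source used here says what replaced the peptide. All 3 groups were primary white adipocytes. The stromal-vascular fraction of inguinal fat, from male mice of the C57BL6 strain at an age of 30 to 35 days, was differentiated in culture. Over the first 2 days the medium held rosiglitazone at 1 µM, isobutylmethylxanthine at 0.5 µM, insulin at 5 µg/ml and dexamethasone at 1 µM. The cells were then kept in insulin and rosiglitazone and held from day 6 in plain medium with serum. Such a culture holds precursor cells beside fat cells. The replicates are labelled biological, but neither separate animals nor separate dishes are stated, and p-values therefore measure only the spread between these samples.

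Vitamin A circulates as retinol. STRA6 brings retinol into some cells, RDH10 oxidises it to retinaldehyde, and DHRS3 reduces retinaldehyde back to retinol. The ALDH1A enzymes oxidise retinaldehyde to retinoic acid, the CRABP proteins bind retinoic acid in the cell, and CYP26B1 breaks it down. Retinoic acid acts through nuclear receptors, and in fat cells of mice it is known to induce Ucp1 and to restrain the formation of new fat cells. PTH and PTHrP share a receptor, PTH1R, which raises cAMP.

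The median signal of the arrays lay between 48.2 and 52.6. Of the adipocyte markers, 5 of 6 measured were above the dim level of 29.0, the 40th percentile of the probe sets, and Lep was below it on every array. Adipoq averaged 14020 with PTH, 13341 with PTHrP and 13618 in controls. Of the markers of other cell types, Ptprc and Itgam of macrophages, Pecam1 of endothelium, Upk3b of mesothelium and Krt14, Epcam and Cdh1 of epithelium were below that level on every array. Means were above it for 4 of 6 macrophage, 3 of 4 endothelial, 3 of 5 mesothelial and 1 of 4 epithelial markers. So were those of all 6 measured precursor and fibroblast markers and all 4 smooth muscle and pericyte markers. Among these, Col1a1 averaged 7882 and Acta2 12821 in controls. The 3'/5' actin ratio, which reflects how intact the RNA was, came to 1.59 to 1.65 with PTH, 1.52 to 1.61 with PTHrP and 1.45 to 1.51 in controls. That ratio thus separated treated from control arrays as treatment did, and its part in the differences below was not tested.

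Rdh10, which makes retinaldehyde from retinol, was the member that differed most. Its brightest probe set gave signals of 1035, 1079 and 1022 with PTH and 1201, 1056 and 1067 with PTHrP, against 438, 429 and 343 in controls. Every treated array lay above every control array, and PTH and PTHrP arrays overlapped. The mean signal was 2.59 times the control mean with PTH and 2.75 times with PTHrP. The log2 change of signal + 16 was 1.35 with PTH and 1.43 with PTHrP (SE 0.095 each, n = 3 arrays a group). The SE of this and later changes is that of a difference in the limma fit. It rests on the pooled spread of the groups, adjusted towards that of other genes, and is therefore the same for both peptides. The Rdh10 change was the 9th highest of 18193 genes with PTH and the 8th with PTHrP. The spread within groups was small beside this, with a coefficient of variation of 2.84% with PTH, 7.26% with PTHrP and 13.0% in controls. Without any 1 array the PTH change lay between 1.24 and 1.41 and the PTHrP change between 1.32 and 1.49.

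The other Rdh10 probe set showed the same pattern at a lower signal. It read 256, 255 and 244 with PTH and 294, 267 and 256 with PTHrP, against 97.5, 82.4 and 97.7 in controls. All treated arrays were above all controls, and all PTH arrays were below all PTHrP arrays, the closest pair being 255.6 with PTH and 256.2 with PTHrP. The log2 change was 1.30 (SE 0.08) with PTH and 1.41 (SE 0.08) with PTHrP, close to those of the brighter set.

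**Figure D1:**
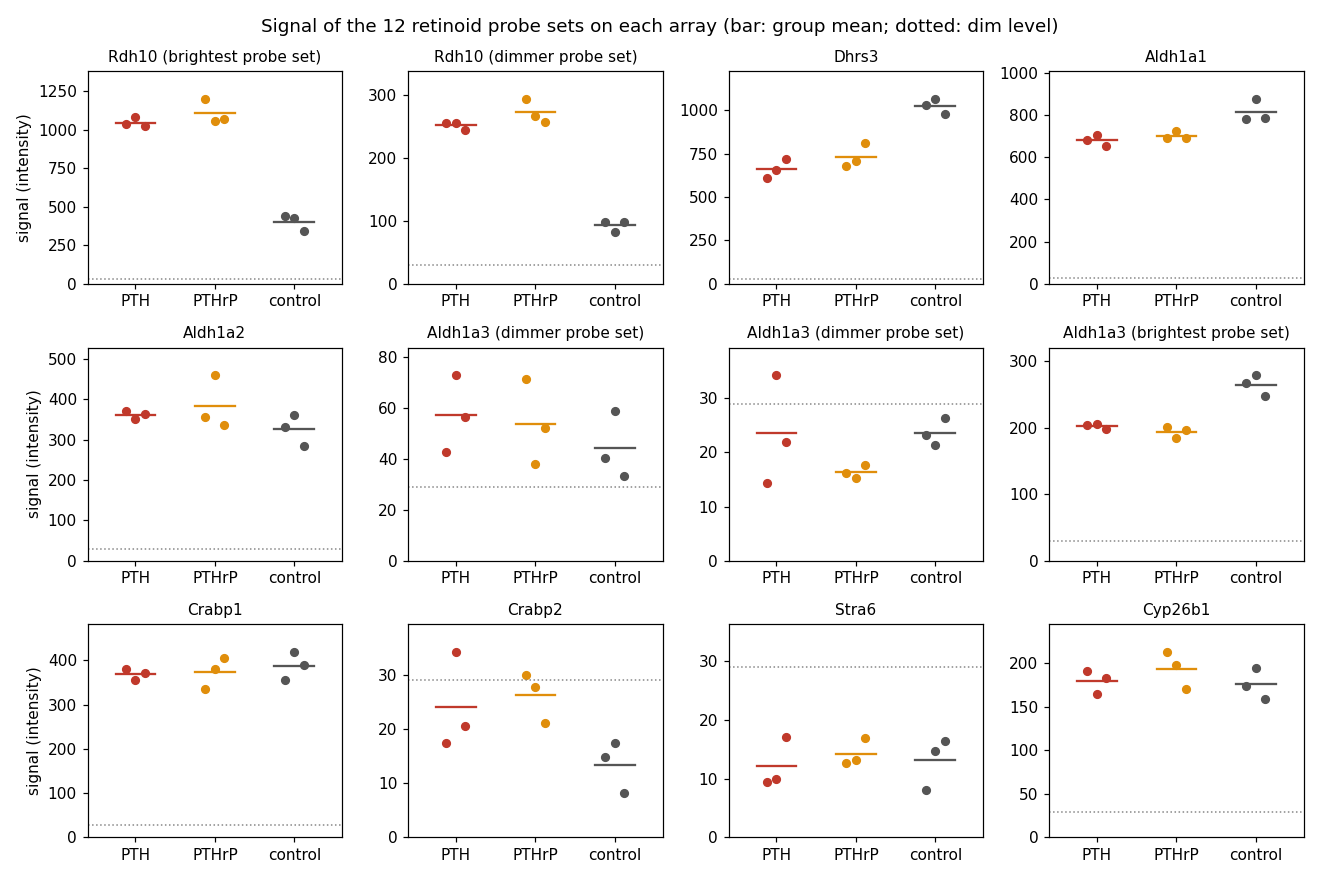
Signal (intensity, linear axis from 0) of the 12 probe sets of the 9 genes on each array, by group; points are arrays, bars group means, and the dotted line the dim level of 29.0. Both Rdh10 probe sets were higher and Dhrs3, Aldh1a1 and the brightest Aldh1a3 probe set lower on every treated array than on every control array, while Stra6 was below the dim level throughout.

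Dhrs3, which returns retinaldehyde to retinol, moved the other way. Its signal was 608, 653 and 717 with PTH and 679, 706 and 810 with PTHrP, against 1033, 1068 and 981 in controls. All 6 treated arrays were below all 3 controls. The log2 change was -0.63 (SE 0.08, n = 3) with PTH and -0.48 (SE 0.08, n = 3) with PTHrP. Dhrs3 was the 131st lowest of 18193 genes with PTH and the 244th lowest with PTHrP. With PTHrP it no longer passed the limma threshold, an adjusted p of 0.05, without control replicate 2 (log2 change -0.46), PTHrP replicate 1 (-0.43) or PTHrP replicate 2 (-0.46). Within arrays, the log2 ratio of Rdh10 to Dhrs3 signal exceeded its control mean by 1.98 ± 0.13 with PTH and 1.91 ± 0.21 with PTHrP (SD, n = 3), and the control arrays themselves varied by 0.14 (SD). The lowest treated array, at 1.71, was above the highest control array, at 0.11. This ratio restates the changes of both genes, which were chosen with these values known, and is not further support for them.

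Among the enzymes that make retinoic acid, the 3 Aldh1a genes differed from each other. Aldh1a1, abundant in fat, had signals of 683, 707 and 650 with PTH and 689, 722 and 691 with PTHrP, against 780, 877 and 787 in controls. All treated arrays were below all controls, by a log2 change of -0.25 (SE 0.06) with PTH and -0.21 (SE 0.06) with PTHrP. With PTH the gene passed the limma threshold only with all 9 arrays, and leaving out any 1 of them ended the call, with log2 changes between -0.28 and -0.20, as did median centring (-0.24), a pseudocount of 1 (-0.26), the mean of probe sets and fitting only the 2 groups. With PTHrP it did not pass, but it did with dim genes left out, with a pseudocount of 64 (-0.20) or with a trended and robust variance.

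Promoter sequence was at hand in RefSeq (GRCm38.p6) for 6 of the 9 genes, Dhrs3, Aldh1a1, Aldh1a2, Crabp1, Stra6 and Cyp26b1, in 12 windows of 250 bases before and 50 after an annotated start. A window each is shown for Dhrs3 and Aldh1a1, the lower genes that have any, since both were below control with each peptide. For each gene it is the window with the most CCAAT matches, 2 in each; the other 2 windows of Dhrs3 hold 0 and 1, and the other window of Aldh1a1 holds 0. Capitals mark the CCAAT box, the motif CCAAT on either strand.
Dhrs3, chr4:144892827-144893126, plus strand: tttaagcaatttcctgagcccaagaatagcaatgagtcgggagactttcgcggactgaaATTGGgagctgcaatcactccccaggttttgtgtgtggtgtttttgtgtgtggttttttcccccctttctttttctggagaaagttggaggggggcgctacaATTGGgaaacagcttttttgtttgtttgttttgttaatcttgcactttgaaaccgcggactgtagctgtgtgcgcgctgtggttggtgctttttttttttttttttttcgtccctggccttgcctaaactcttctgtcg
Aldh1a1, chr19:20601718-20602017, plus strand: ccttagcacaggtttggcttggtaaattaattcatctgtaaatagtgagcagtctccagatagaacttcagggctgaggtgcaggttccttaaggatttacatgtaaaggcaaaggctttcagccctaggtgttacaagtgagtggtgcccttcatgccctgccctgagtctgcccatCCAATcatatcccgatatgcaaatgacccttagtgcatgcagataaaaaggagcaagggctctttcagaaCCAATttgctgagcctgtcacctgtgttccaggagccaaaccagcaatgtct
The cAMP response element TGACGTCA was in 0 of the 12 windows and in 1.79% of all 32851 windows, and its part TGACG, which the full element contains, was in 0 of 12 and in 20.8% of all. The hexamer AGGTCA, which nuclear receptors bind, was in 0 of 12 and in 16.3% of all, and CCAAT in 5 of 12 and in 37.4% of all, with both strands searched. Several windows belong to 1 gene, and some of these overlap, and the letters say nothing of sites outside these windows or of binding.

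Aldh1a3, the ALDH1A enzyme best known from the developing eye and nose, read 204, 206 and 198 with PTH and 201, 184 and 197 with PTHrP on its brightest probe set, against 267, 278 and 247 in controls. Here too all treated arrays were below all controls, with a log2 change of -0.36 (SE 0.06) with PTH and -0.42 (SE 0.06) with PTHrP. Its other probe sets did not show this. The middle one, which shares the target accession of the brightest, read 42.4, 72.6 and 56.4 with PTH and 71.2, 37.8 and 51.9 with PTHrP, against 40.3, 58.8 and 33.2 in controls, and the groups overlapped. The dimmest read 14.4, 34.3 and 21.9 with PTH and 16.2, 15.3 and 17.6 with PTHrP, against 23.2, 21.4 and 26.4 in controls. There the PTHrP arrays were below all controls and the PTH arrays overlapped them. Averaged over its 3 probe sets, Aldh1a3 had a log2 change of -0.04 with PTH and -0.17 with PTHrP, and neither passed. The PTH call of the brightest probe set was also lost without PTH replicate 3 (log2 change -0.34).

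Aldh1a2, the main source of retinoic acid in the embryo, read 371, 352 and 363 with PTH and 357, 460 and 337 with PTHrP, against 332, 362 and 285 in controls. The groups overlapped, and the log2 changes of 0.15 (SE 0.12) and 0.22 (SE 0.12) did not pass. PTHrP replicate 2, at 460, was the highest array, and without it the PTHrP change was 0.09.

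The carriers and the breakdown enzyme showed no call. Crabp1, which is thought to hand retinoic acid to its breakdown, read 381, 356 and 371 with PTH and 336, 381 and 405 with PTHrP, against 355, 418 and 389 in controls, with overlapping groups. Cyp26b1, which degrades retinoic acid, read 191, 165 and 182 with PTH and 212, 198 and 170 with PTHrP, against 174, 194 and 159 in controls. Its log2 changes were 0.03 (SE 0.10) with PTH and 0.13 (SE 0.10) with PTHrP, and the groups overlapped.

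Crabp2, which carries retinoic acid to its nuclear receptor, and Stra6, the retinol importer, were at the bottom of the signal range. Crabp2 read 17.4, 34.3 and 20.5 with PTH and 30.1, 27.8 and 21.2 with PTHrP, against 14.8, 17.4 and 8.20 in controls. The treated arrays were above the controls, the closest pair being 17.44 with PTH and 17.39 in controls, but only 2 of the 9 arrays exceeded the dim level. Its log2 changes of 0.43 with PTH and 0.53 with PTHrP (SE 0.175 each) did not pass, and they depended on the added 16, reaching 0.80 and 0.97 with 1 added and 0.18 and 0.22 with 64 added. Stra6 lay between 9.43 and 17.1 with PTH, 12.6 and 17.0 with PTHrP, and 8.13 and 16.5 in controls, below the dim level on all 9 arrays, so a change could not be judged at this signal.

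Counted by gene, with PTH 1 member rose (Rdh10), 3 fell (Dhrs3, Aldh1a1 and Aldh1a3) and 5 did not pass. Over all genes 2.96% were called higher, 3.14% lower and 6.1% in either direction with PTH. With PTHrP 1 rose, 2 fell (Dhrs3 and Aldh1a3) and 6 did not pass, against 2.54%, 3.03% and 5.57% of all genes. Since the members were chosen with these comparisons known, nothing is read from the shares. Fitted over all 45037 probe sets, 4 of the 12 were called with each peptide, both of Rdh10, that of Dhrs3 and the brightest of Aldh1a3, where 2.7% of probe sets were called with PTH (1.34% higher, 1.37% lower) and 2.39% with PTHrP (1.19% higher, 1.2% lower). Groups without overlap numbered 2 above (Rdh10, Crabp2) and 3 below (Dhrs3, Aldh1a1, Aldh1a3) with each peptide, where 12.8% of genes were above and 13.2% below with PTH, and 10.4% and 12% with PTHrP. Crabp2 stands in that count by 17.44 against 17.39 with PTH, and most of its arrays were below the dim level, so its order is not usable. The median log2 change of the 9 was -0.05 with PTH and 0.07 with PTHrP, against -0.0027 and -0.0050 over all genes. PTH and PTHrP were set against the same 3 control arrays, so their likeness is not independent evidence.

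**Figure D2:**
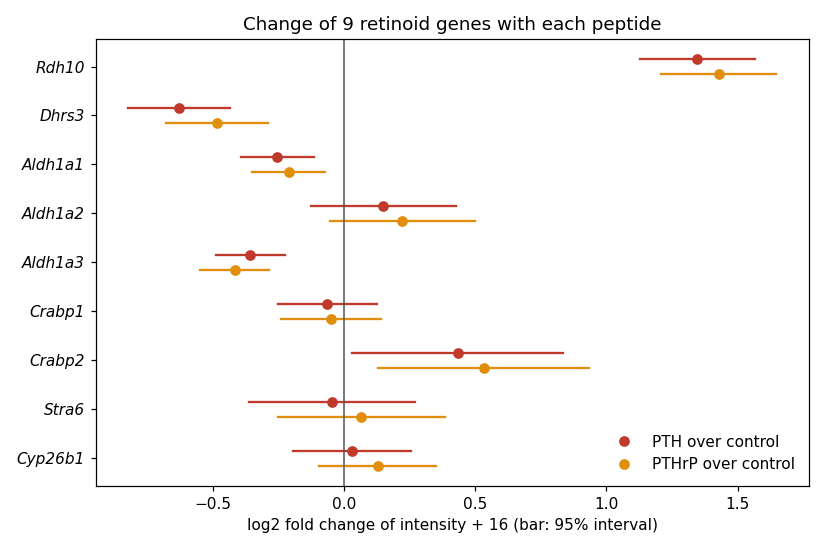
Log2 fold change of intensity + 16 over control for the 9 genes, by their brightest probe set, with PTH and with PTHrP (points) and 95% intervals (bars) from the fit over all genes. The intervals are a description and not tests, since the genes were chosen with these differences known. Rdh10 lies at 1.35 and 1.43, Dhrs3 at -0.63 and -0.48, and the other genes between -0.42 and 0.53.

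Some markers of other cell types were also lower on the arrays where Dhrs3, Aldh1a1 and the brightest Aldh1a3 probe set were lower. Summed over 4 of 4 smooth muscle and pericyte markers, the signal was 13828 to 14068 with PTH and 13188 to 13862 with PTHrP, against 14582 to 14787 in controls. Most of that sum was Acta2, at means of 12400 with PTH, 12067 with PTHrP and 12821 in controls. Myh11, smooth muscle myosin, fell with both peptides (log2 change -0.38 with PTH, limma adjusted p = 0.0227, and -0.45 with PTHrP, adjusted p = 0.0109). The other 3 did not pass and did not move together. With PTH and PTHrP, Acta2 changed by -0.05 and -0.09, Cnn1 by -0.25 and -0.35, and Rgs5 by 0.23 and 0.21. Over 6 of 7 precursor and fibroblast markers the sum was 24350 to 24487 with PTH and 23518 to 25835 with PTHrP, against 25360 to 26471 in controls, so that the PTH arrays lay below all controls and the PTHrP arrays overlapped them. Pdgfrb fell with both (-0.31 with PTH, adjusted p = 0.0111, and -0.35 with PTHrP, adjusted p = 0.00717) and the other 5 did not pass. The 4 endothelial markers, of which Pecam1 was below the dim level on every array, summed to 185 to 224 with PTH and 193 to 274 with PTHrP, against 247 to 290 in controls, and none of them passed. The adipocyte markers, with 6 of 8 measured, summed to 39402 to 41978 with PTH, 37976 to 40282 with PTHrP and 38243 to 39765 in controls. Most of that sum was Adipoq and Fabp4, the latter at means of 18203 with PTH, 17680 with PTHrP and 17944 in controls. Cidec, a lipid droplet protein, rose with both peptides (log2 change 0.28 with PTH, limma adjusted p = 0.0375, and 0.31 with PTHrP, adjusted p = 0.0304), and the other 5 did not pass. The 6 macrophage markers summed to 863 to 985 with PTH and 856 to 935 with PTHrP, against 797 to 872 in controls, with overlapping groups, and none of them passed. They did not move together, and 4 of the 6 had log2 changes below 0 with each peptide. With PTH and PTHrP, Csf1r, the brightest, changed by 0.29 and 0.28, and Lyz2 by -0.27 and -0.39. The part of cell makeup in these differences was not tested, and in bulk RNA fewer cells of a type cannot be told apart from less RNA per cell.

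PTH and PTHrP were compared directly at matched dose and time, a contrast that did not serve to choose the genes. Of the 9 genes 0 passed, and 0 of all 18193 genes did (limma, 0% called, 730 genes and 0 members at an unadjusted p below 0.05). For Rdh10 the log2 difference, PTH minus PTHrP, was -0.08 (95% interval -0.30 to 0.14, adjusted p = 0.999, limma). For Dhrs3 it was -0.15 (interval -0.34 to 0.05), for Aldh1a1 -0.04 (-0.18 to 0.09) and for Aldh1a3 0.06 (-0.07 to 0.19), all with an adjusted p of 0.999. In signal, the PTH arrays of Dhrs3 lay between 608 and 717 and its PTHrP arrays between 679 and 810. No member had groups without overlap on its brightest probe set, against 5.23% of genes with PTH above and 3.83% with PTH below PTHrP. For all 9 the intervals lay between -0.50 and 0.30, and differences within an interval could not be resolved with 3 arrays a group.

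The rest of the retinoid pathway was read from 6 lists, of whose 56 genes 51 were measured and 34 had a mean signal above the dim level. With PTH 3 of the 51 rose and 0 fell (5.88%, against 6.1% of all genes), and with PTHrP 3 rose and 1 fell (7.84%, against 5.57%). Both shares were near those of all genes. The lists, like the members, were chosen with earlier results of these data known. The adjusted p-values of their genes against control are therefore a description and not tests of genes picked in advance. The median log2 change was 0.02 with PTH and -0.01 with PTHrP. At an unadjusted p below 0.05 there were 8 with PTH and 9 with PTHrP.

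Of 7 measured retinol carriers and uptake genes (8 listed), 0 passed with either peptide (limma, with 1 at an unadjusted p below 0.05 for PTH and 2 for PTHrP). Rbp4, the retinol carrier that fat cells secrete, averaged 7379 ± 194 with PTH and 7248 ± 137 with PTHrP, against 6752 ± 226 in controls (SD, n = 3; limma adjusted p = 0.178 and 0.299). By the larger of its changes with the 2 peptides, this list was led by Rbp3 (log2 change -0.27 with PTH and -0.44 with PTHrP) and Stra6l (-0.22 and -0.34), neither of which passed. Without control replicate 3 the PTHrP change of Stra6l was -0.44 and passed (adjusted p = 0.0226, limma), but Stra6l was dim, with mean signals of 4.67, 3.06 and 8.14 with PTH, with PTHrP and in controls.

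Of 16 measured retinol and retinaldehyde oxidoreductases other than the members (18 listed), 1 rose with PTH, and 1 rose and 1 fell with PTHrP. Rdh13, a mitochondrial member of the retinol dehydrogenase family, had signals of 266, 287 and 283 with PTH and 253, 252 and 240 with PTHrP, against 217, 207 and 196 in controls. It rose by a log2 change of 0.40 (SE 0.05, adjusted p = 0.00479) with PTH and 0.25 (SE 0.05, adjusted p = 0.0371) with PTHrP, and every PTH array was above every PTHrP array (difference 0.15, adjusted p = 0.999, unadjusted p = 0.0227, limma). Over all genes, 5.23% had every PTH array above every PTHrP array, and 730 of 18193 had an unadjusted p below 0.05 in that comparison (limma). The PTHrP call of Rdh13 was lost without any array other than control replicate 1 (adjusted p between 0.0504 and 0.127), with median centring (0.0750) and with only the 2 groups fitted (0.102). Adh7, an alcohol dehydrogenase active on retinol, read 111, 105 and 111 with PTH and 109, 103 and 88.9 with PTHrP, against 126, 124 and 132 in controls. Its change was -0.20 with PTH (adjusted p = 0.157) and -0.31 with PTHrP (adjusted p = 0.0397), and the PTHrP call was lost without any array other than PTHrP replicate 1 (0.0629 to 0.118), with median centring (0.0626), a pseudocount of 1 (0.0520), the mean of probe sets (0.0526) and with only the 2 groups fitted (0.123). Adh1, which is abundant here, averaged 3176 with PTH and 3204 with PTHrP, against 3230 in controls.

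Of 9 retinyl ester and carotenoid enzymes, 1 rose and 8 did not pass with each peptide. Dgat1, which esterifies retinol as well as making triglyceride, had signals of 3761, 4072 and 4029 with PTH and 3956, 3868 and 3847 with PTHrP, against 2730, 2532 and 2434 in controls. The name of this probe set marks probes that may match several transcripts. On it Dgat1 rose by 0.62 (SE 0.06, limma adjusted p = 0.000801) with PTH and 0.60 (SE 0.06, adjusted p = 0.000901) with PTHrP. Its other probe set, with means of 83.8, 82.5 and 85.2 with PTH, with PTHrP and in controls, had changes of -0.02 and -0.04 that did not pass. With the mean of both probe sets the changes were 0.30 (adjusted p = 0.0336) and 0.28 (0.0489). With PTH the next largest change was that of Bco2, a carotenoid-cleaving enzyme, at 0.20 with PTH and -0.01 with PTHrP (adjusted p = 0.358 and 0.975). Bco2 was dim, with mean signals of 27.6, 21.6 and 22.1 with PTH, with PTHrP and in controls.

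Of 3 measured genes of retinoic acid synthesis and breakdown (4 listed) and 8 of retinoid receptors and carriers, 0 passed with either peptide (limma, with 0 and 1 at an unadjusted p below 0.05 for PTH, and 1 and 1 for PTHrP). Cyp26a1, which degrades retinoic acid and is itself induced by it, averaged 33.2 ± 5.55 with PTH and 40.0 ± 4.52 with PTHrP, against 31.7 ± 1.02 in controls (log2 change 0.04, adjusted p = 0.870, and 0.23, adjusted p = 0.213). Aldh8a1 was dim, at 11.9, 12.9 and 11.03 with PTH, with PTHrP and in controls. Among the receptors, Rara, the retinoic acid receptor alpha gene, had log2 changes of -0.19 and -0.16 (adjusted p = 0.156 and 0.232), and Ppard, a lipid receptor reported to bind retinoic acid as well, 0.19 and 0.19 (0.350 and 0.351).

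Of 10 measured textbook target genes of retinoic acid (11 listed, of which Rarb and Cyp26a1 also stand in other lists), 1 rose and 9 did not pass with each peptide. Tgm2, tissue transglutaminase, averaged 6392 ± 63.9 with PTH and 6262 ± 60.7 with PTHrP, against 5435 ± 110 in controls (SD, n = 3), on a probe set whose name marks probes that may also bind other transcripts. The change was 0.23 (SE 0.04, adjusted p = 0.0139) with PTH and 0.20 (SE 0.04, adjusted p = 0.0264) with PTHrP. The PTH call was lost without PTH replicate 2 (0.0534) or PTH replicate 3 (0.0713), and with the mean of its 6 probe sets (log2 change 0.24, adjusted p = 0.0651). The PTHrP call was lost without any array other than PTH replicate 1 (0.0516 to 0.0802), with median centring (0.0509) and with only the 2 groups fitted (0.101). All 6 Tgm2 probe sets had log2 changes above 0 with both peptides, though the dimmest was below the dim level. In the fit over all probe sets, a set without that mark in its name changed by 0.27 (limma adjusted p = 0.0362) and 0.30 (0.0263). There the brightest set passed with PTH only (0.0470, and 0.0810 with PTHrP), and the rest with neither. Stra8 had changes of 0.25 with PTH and 0.20 with PTHrP that did not pass (adjusted p = 0.171 and 0.285), and Rarb, a direct target of retinoic acid receptors, had 0.03 and 0.16 (0.933 and 0.496).

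**Figure D3:**
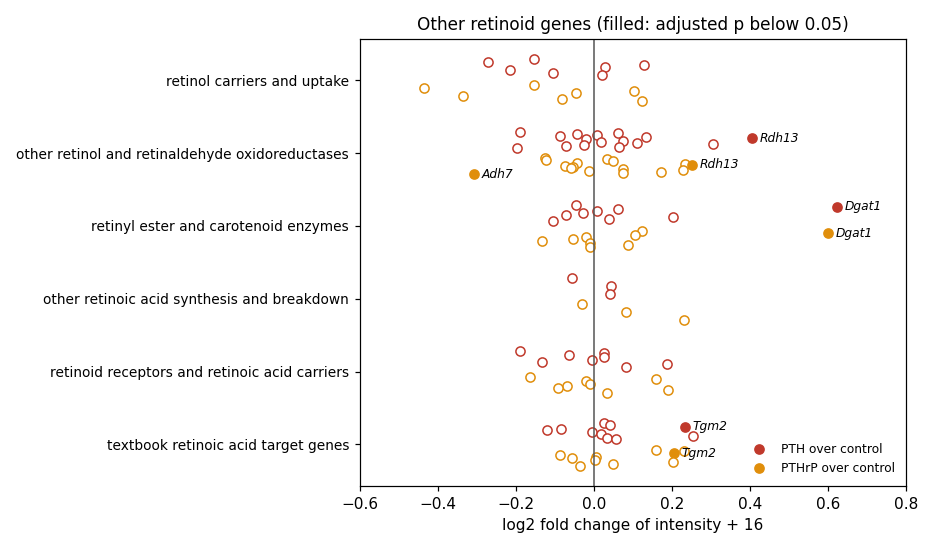
Log2 fold change of intensity + 16 over control for the measured genes of 6 retinoid lists without the members, with PTH and with PTHrP; each point is a gene and filled points passed an adjusted p of 0.05 (limma). Dgat1 lies farthest from 0, at 0.62 and 0.60, and of the other genes Rdh13, Tgm2 and, with PTHrP, Adh7 are filled.

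By Pearson correlation over the 9 arrays, the genes outside the retinoid lists most like Rdh10 were Gprc5b (r = 0.999), an orphan receptor gene, the zinc transporter gene Slc39a10 (0.996), Gcnt2 (0.995), an enzyme that branches sugar chains, Gda (0.995), the guanine deaminase gene, and Acsl4 (0.995), which activates long-chain fatty acids. Gprc5b averaged 807 ± 18.4 with PTH and 844 ± 23.2 with PTHrP, against 475 ± 33.7 in controls (SD, n = 3), and Acsl4 1655 ± 52.9 and 1667 ± 56.8, against 919 ± 55.3. All of these arrays share the split into treated and control, which fixes most of such a correlation, and it is given as a likeness only. By the same measure Dhrs3 stood at -0.90 and Aldh1a3 at -0.92, and Stra6 at -0.04.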

How the data were processed

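Affymetrix mouse arrays were hybridised with biotin-labelled cRNA of 9 samples, per the labels' protocols. The authors deposited 1 intensity for each probe set and array; how probes were summarised, corrected for background and scaled no source used here says. A linear scale was taken from the range of the values, and log2 changes are fold changes only if that holds. The table has 45101 probe sets: 34945 carry 1 symbol, 932 carry several, 9160 carry none and 64 are array controls. A gene was represented by its brightest probe set.

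Log2(intensity + 16) was fitted with limma 3.58.1 in R 4.3.3, with a mean for each group, and two-sided p-values were adjusted over the 18193 genes (Benjamini-Hochberg, threshold 0.05). Probe sets were also fitted all together. The number of arrays limits the precision. Members and lists were chosen with earlier results of these data known. Named were the 9 members, all list genes that passed, the 2 with the largest change of each list and the 5 most like Rdh10 with a mean signal above the dim level; Adh1, Rbp4, Rarb and marker genes were named after their values were seen. Of the listed genes 5 were not analysed here, nor were the markers Plin1, Cfd and Ly6a. The alternatives were quantile normalization, median centring, leaving out dim genes, the mean of probe sets, a trended and robust variance, a replicate block, leaving out each array, a pseudocount of 1 or 64, fitting only 2 groups and a threshold of 0.01. The fit was tested on simulated data. Figures were drawn with matplotlib 3.10.9.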

Additional observations from a re-analysis of the deposited data

How the results depend on the processing

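The members called with PTH numbered 4, 2 with the mean of probe sets, and 2 to 3 without any 1 array. With PTHrP they numbered 3, and 2 to 3 without any 1 array. With PTHrP 4 passed with dim genes left out, a trended and robust variance or a pseudocount of 64. There 2 passed with the mean of probe sets or a threshold of 0.01. Other retinoid genes called numbered 3 with PTH (2 to 4 without any 1 array) and 4 with PTHrP, where 1 passed with median centring, the replicate block, only the 2 groups compared or a threshold of 0.01, and 1 to 2 without any 1 array. Over all genes 1109 were called with PTH, 1743 with a trended and robust variance, 672 with the replicate block, 417 at a threshold of 0.01 and 469 to 1050 without any 1 array; the lowest counts were 596 and 699 without control replicates 2 and 3, and 636, 524 and 469 without PTH replicates 1, 2 and 3. With PTHrP 1013 were called, 1648 with a trended and robust variance, 575 with the replicate block, 455 with only the 2 groups compared, 398 at a threshold of 0.01 and 513 to 770 without any 1 array; the lowest counts were 560 and 654 without control replicates 2 and 3, 513 without PTHrP replicate 1 and 671 without PTH replicate 3. For PTH against PTHrP 0 genes were called, 2 with a pseudocount of 1, and 0 to 1 without any 1 array, the 1 without PTHrP replicate 1. With the mean of probe sets, the PTHrP change of Ppard became -0.0012 and the difference of Tgm2, PTH minus PTHrP, -0.030; neither passed. Same-numbered samples of different groups did not deviate together (correlations of deviations between -0.25 and 0.19 in 9 pairs, and between -0.25 and 0.31 in 18 pairs of other numbers), so the numbers share no known pairing; under the replicate block 3 members passed with each peptide, and 2 other retinoid genes with PTH; Aldh1a1 and Tgm2 (adjusted p = 0.0574) did not pass with PTH there, nor did Rdh13 (0.0992), Tgm2 (0.0924) and Adh7 (0.101) with PTHrP. The cause of these shifts was not tested. Signals near or under the dim level, as for Stra6 and Crabp2, carry no usable order, and with dim genes left out neither was fitted.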
